A study of Arabidopsis thaliana with 4 samples.

Results

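The 5 centromeres of Arabidopsis thaliana were followed through the 100 kb bin at each that held the most Hi-C contacts, in a contact map of endosperm and a contact map of leaf. Hi-C crosslinks chromatin, cuts and religates the DNA, and reads pairs of sequences that lay close together in the nucleus. The bins were chosen by their contact count, recovered from the deposited signal, as the highest at each centromere, which gave 5 of the 1193 bins of the maps. Both tissues carried the label Col-0 and the genotype label Col_wt x Col_wt, with no treatment. The leaves were 4 weeks old, while no age of the endosperm, the nutritive tissue beside the embryo, is given in the sources used here. Each map pooled replicates 1 and 2 of its tissue, so there was 1 map per tissue, no spread between replicates and no test across replicates. The maps held 18557893 contacts in leaf and 25033672 in endosperm, with a median of 26456 and 36409.5 contacts per bin. Maternal and paternal copies of a chromosome are not told apart in these maps. The leaf map joins an arm of chromosome 1 to an arm of chromosome 2: the bins at 22.3 to 22.8 Mb and at 1.1 to 1.6 Mb had a mean contact of 4.54 in leaf and 1.04 in endosperm, where 1 is the mean of pairs on different chromosomes. Without chromosomes 1 and 2 the 8 main differences reported here kept their direction.

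Arabidopsis centromeres are built on long tandem arrays of a short satellite repeat, on part of which the centromeric histone CENH3 marks the site of the kinetochore. In interphase nuclei the arrays and the transposon-rich DNA beside them are packed into dense bodies called chromocentres, in which centromeres of several chromosomes can lie together. The reference assembly holds only a small part of each array, so reads from many repeat copies fall on few reference bases, and a distance across a centromere is a distance in the reference.

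On chromosome 1 the bin was chr1:15000001-15100000, on chromosome 2 chr2:3600001-3700000, on chromosome 3 chr3:13500001-13600000, on chromosome 4 chr4:3900001-4000000 and on chromosome 5 chr5:11700001-11800000, in TAIR10 positions. They are called satellite bins here after their working name. Their satellite content was not checked against sequence, since no genome sequence was used. What could be checked was the gene content. The chromosome 1 bin held 11 genes, 8 of them pseudogenes, from AT1G40087 to AT1G40104. The chromosome 2 bin held 12, with 8 pseudogenes, from AT2G07880 to AT2G09830. The chromosome 3 bin held 23, with 21 pseudogenes, from AT3G32960 to AT3G33055. All 3 bins were thus annotated mostly with pseudogenes, and so were the remaining bins. The chromosome 4 bin held 22 genes, with 19 pseudogenes, from AT4G06676 to AT4G06716, and the chromosome 5 bin held 17, with 15 pseudogenes and 0 protein-coding genes, from AT5G31770 to AT5G32035. Annotated genes covered between 29.1% of the chromosome 5 bin and 49.8% of the chromosome 3 bin, below the median of the bins around them on each chromosome (48.7% to 52.9%).

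The counts that chose the bins are a description. The chromosome 4 bin held 968962 contacts in leaf and 965547 in endosperm, 36.6 and 26.5 times the median bin of its map, the highest count of all bins in both maps. The chromosome 3 bin followed, at 30.3 times the median in leaf and 22.7 in endosperm. The chromosome 5 bin stood at 23.1 and 17.1 times the median and the chromosome 2 bin at 23.0 and 15.8. These 4 held ranks 1 to 4 in both maps. The chromosome 1 bin was far lower, at 5.39 times the median in leaf and 3.82 in endosperm, and ranked 7 and 10. It also stood apart, since no bin between 14.5 and 15.5 Mb other than it was used. The bin at 15.1 Mb had signal in leaf (0.597 times the median) but none in endosperm. The next bin by count within 2 Mb was at 16.5 Mb on chromosome 1 (1.24 in leaf and 1.15 in endosperm), at 3.3 Mb on chromosome 2 (2.97 and 5.46), at 14.1 Mb on chromosome 3 (6.79 and 12.7), at 2.5 Mb on chromosome 4 (1.11 and 1.12) and at 11.1 Mb on chromosome 5 (2.28 and 1.97). The chosen bins were clear of these neighbours in both maps, least so on chromosome 3 in endosperm.

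Relative to the median bin, the count of all 5 satellite bins was lower in endosperm, at 0.685 to 0.749 of the leaf value. Of the 1168 bins used, 0.514% were over 1.2-fold lower in endosperm by this measure, 6 bins of which 5 were the satellite bins; the rule used these counts, so nothing is read from that share. Contacts with at least 1 of the 5 bins made up 13.0% of the leaf map and 10.5% of the endosperm map. Endosperm minus leaf was -2.51 percentage points (95% counting interval -2.53 to -2.49). The lower count lay in contacts among the 5 bins and inside them. Without those, the chromosome 1 bin stood at 2.26 times the median in leaf and 2.35 in endosperm. The chromosome 2 bin stood at 8.74 and 8.93, the chromosome 3 bin at 14.7 and 15.1, the chromosome 4 bin at 16.5 and 16.4 and the chromosome 5 bin at 9.62 and 10.4. Counted this way, the endosperm value was 0.997 to 1.08 of the leaf value.

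Contact signal between the satellite bins of different chromosomes was far above the mean of pairs on different chromosomes, and less so in endosperm than in leaf. Contact is given here as the authors' balanced signal divided by the mean of all pairs of bins on different chromosomes in the same map. Balancing gives every bin the same total, which takes out the high counts of the satellite bins. The mean over the 10 pairs of satellite bins was 32.6 (32.5 to 32.7) in leaf and 18.2 (18.1 to 18.3) in endosperm. Endosperm over leaf was -0.84 on the log2 scale (-0.85 to -0.83). Without chromosomes 1 and 2, which the leaf map joins, it was -0.79.

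Every pair of satellite bins showed the difference. The pair with the most contact in both maps was chromosome 2 with chromosome 4, at 49.3 in leaf and 28.6 in endosperm, from 153827 and 104928 contacts. Chromosomes 1 and 3 followed in leaf at 43.6, against 22.9 in endosperm. Chromosomes 4 and 5 stood at 41.5 and 24.0. These were the only comparison of 45 between pairs whose order differed between the maps, with 1 and 3 above 4 and 5 in leaf and below them in endosperm. Chromosomes 2 and 5 stood at 38.6 and 20.7, chromosomes 1 and 2 at 31.5 and 17.2, and chromosomes 2 and 3 at 30.4 and 17.0. Chromosomes 3 and 4 stood at 24.9 and 15.0, chromosomes 3 and 5 at 23.7 and 13.1, and chromosomes 1 and 4 at 21.6 and 12.5. The pair with the least contact in both maps was chromosome 1 with chromosome 5, at 20.4 and 11.1, from 9888 and 6851 contacts. This pair, the weakest in leaf, was there still above 6 of the 10 pairs of endosperm.

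**Figure D1:**
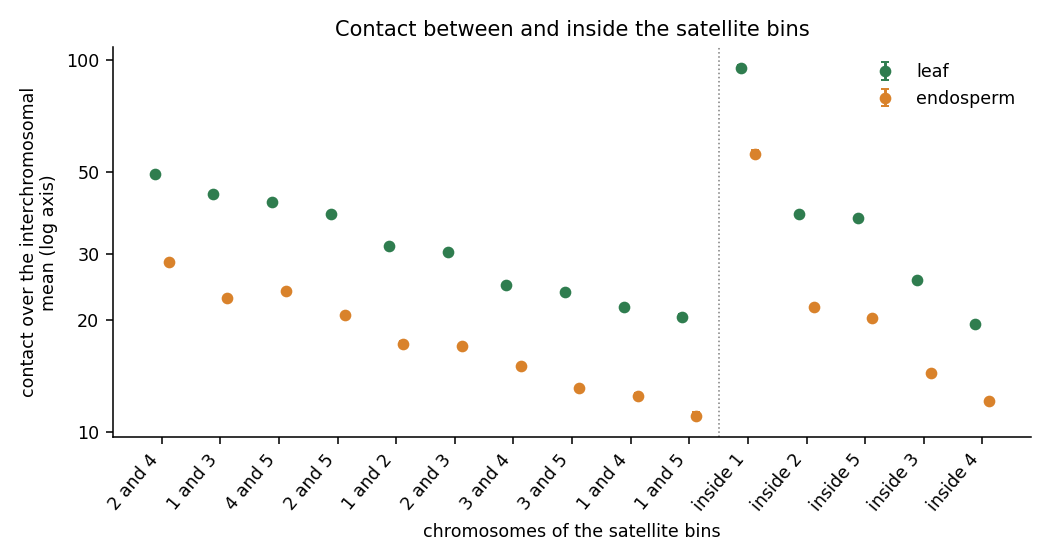
Contact of each pair of satellite bins (left of the dotted line) and inside each satellite bin (right), over the mean of all interchromosomal pairs of the same map, on a log axis; points are the pooled leaf and endosperm maps and bars 95% counting intervals, mostly smaller than the points. All 10 pairs and all 5 bins are lower in endosperm, by 1.6-fold to 1.9-fold.

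The pairs were 1.66-fold to 1.9-fold lower in endosperm, with a median of 1.80, and the counting interval of the log2 difference lay below 0 in 10 of 10. Over all interchromosomal pairs, 16.5% were over 1.5-fold lower in endosperm and 16.1% over 1.5-fold higher, so a change of this size was not rare, but the median pair held only 16 contacts in leaf and 21 in endosperm. Among the 31 interchromosomal pairs with at least 1000 contacts in both maps, 15 were over 1.5-fold lower, the 10 satellite pairs included, and 0 were over 1.5-fold higher. The satellite bins were themselves chosen by count, so their pairs enter this set by selection and it is not a separate reference. As recovered counts, contacts between the satellite bins were 6.53% of interchromosomal contacts in leaf and 3.44% in endosperm. Together with contacts inside the 5 bins they were 5.92% and 3.08% of all contacts, a share 1.92-fold lower in endosperm.

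Contact inside the satellite bins was lower in endosperm by about as much. On chromosome 1 it was 95.1 in leaf and 55.9 in endosperm, and on chromosome 2 it was 38.6 and 21.7. On chromosome 3 it was 25.5 and 14.4, on chromosome 4 it was 19.5 and 12.1, and on chromosome 5 it was 37.7 and 20.3. All 5 were over 1.2-fold lower (1.6-fold to 1.86-fold), against 21.5% of all bins used, and 0.0856% were over 1.2-fold higher. The log2 difference inside a bin was -0.68 to -0.89 for the satellite bins, while the median was -0.36 to -0.42 for the bins within 2 Mb of them and -0.12 for bins of the chromosome arms. The largest single fall among the bins within 2 Mb was -1.96 on chromosome 3 and -0.48 to -0.63 on the other chromosomes. Contacts inside bins were 16.6% of all contacts in leaf and 14.1% in endosperm, and the part of this in the satellite result was not tested.

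For an ordinary bin, contact inside it is far above contact with any other chromosome, and the satellite bins departed from this. Arm bins had a median contact inside the bin of 131 in leaf and 121 in endosperm, so 4 of the 5 satellite bins, at 19.5 to 38.6 in leaf, were several-fold lower. Flank bins were all above the satellite bin of their chromosome, except on chromosome 3. There 39 of 40 were above it in leaf and 38 in endosperm, and the lowest stood at 15.2 and 8.62. Low contact inside the bin was thus not confined to the satellite bins. The signal of the chromosome 4 bin with the chromosome 2 bin (49.3 in leaf) was above the signal inside it (19.5). These values are not on a like scale: with reads assigned evenly, 2 different bins share 2 times the contacts found inside 1. The count between a pair of bins can be set against 2 times the geometric mean of the counts inside them, a ratio that would be 1 if reads were assigned evenly among the bins whatever their origin. It was highest for chromosomes 2 and 4, at 0.900 in leaf and 0.882 in endosperm, and lowest for chromosomes 1 and 5, at 0.170 and 0.164. The 10 pairs thus ranged widely, yet each kept nearly the same value in both maps, with the endosperm ratio at 0.913 to 1.02 of the leaf ratio. For satellites of near-identical sequence, contact between chromosomes and reads placed on the wrong chromosome cannot be told apart here.

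The partners of the satellite bins shifted accordingly. Of the contacts of the chromosome 2 bin, 63.6% lay with the other 4 satellite bins or inside it in leaf and 45.7% in endosperm. For chromosome 1 these shares were 60.1% and 41.0%, for chromosome 3 53.5% and 36.3%, for chromosome 4 56.9% and 40.6%, and for chromosome 5 60.0% and 41.8%. The difference was taken up mainly by the arms of other chromosomes, which made up 21.8% of the chromosome 1 bin's contacts in leaf and 31.5% in endosperm, and 28.1% and 37.9% for chromosome 4. After balancing the satellite block weighed far less, at 9.95% to 14.5% of each bin's signal in leaf and 5.35% to 7.76% in endosperm.

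**Figure D2:**
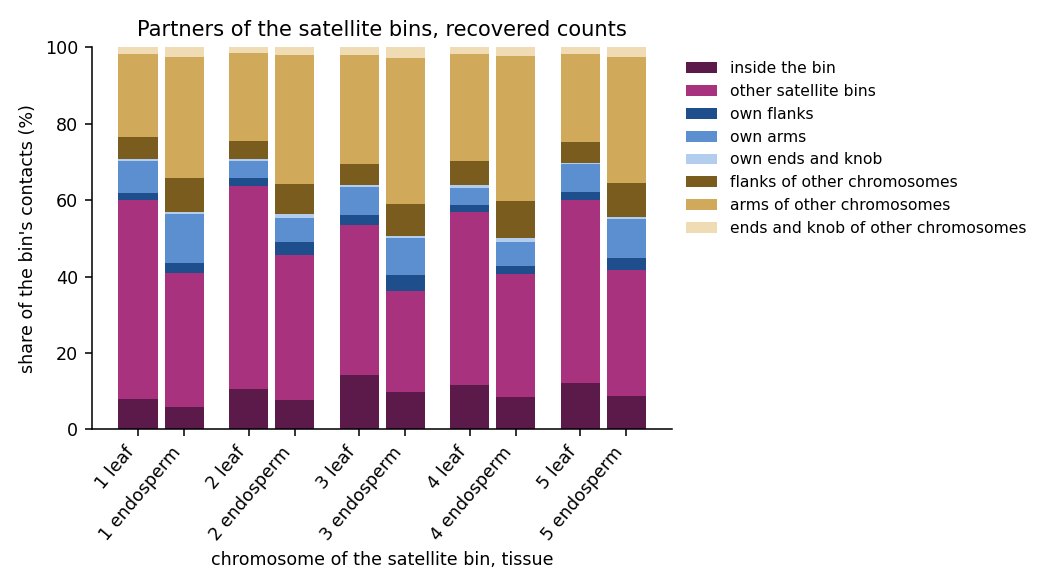
Share of each satellite bin's recovered contacts (%, stacked to 100) by the class of the partner bin, for the 5 chromosomes in leaf and endosperm. The other satellite bins and the bin itself take 53.5% to 63.6% in leaf and 36.3% to 45.7% in endosperm.

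Contact of the satellite bins with the flanks of other chromosomes, meaning bins within 2 Mb of the other satellite bins, was slightly above the interchromosomal mean and higher in endosperm. The mean was 1.29 (1.28 to 1.30) in leaf and 1.44 (1.44 to 1.45) in endosperm. On the log2 scale endosperm was 0.16 higher (0.15 to 0.17). It was 1.21 and 1.38 for the chromosome 1 bin, 1.33 and 1.47 for chromosome 2, 1.25 and 1.42 for chromosome 3, 1.38 and 1.52 for chromosome 4, and 1.28 and 1.44 for chromosome 5. All 5 were higher in endosperm, but 0 of 5 by over 1.2-fold, a step that 4.45% of all bins took upward and 0.599% downward. In the same measure the median flank bin stood at 0.897 to 0.961 in leaf and 1.06 to 1.08 in endosperm. Its log2 difference was 0.17 to 0.24, above that of the satellite bin (0.14 to 0.19) on each chromosome. The rise was thus not particular to the satellite bins.

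Contact with the arms of other chromosomes moved the same way. Its mean was 1.06 in leaf and 1.17 in endosperm, which was 0.14 higher on the log2 scale (0.13 to 0.14). The 5 bins spanned 1.01 to 1.1 in leaf and 1.13 to 1.19 in endosperm. No bin of the genome changed by over 1.2-fold in this measure (0.0% in each direction). The median flank bin contacted the arms of other chromosomes at 0.901 to 0.933 in leaf and 0.959 to 0.980 in endosperm, below the satellite bin of its chromosome.

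Every balanced bin has the same total, so its contact with one class of partners is not independent of its contact with the rest. The part of this in the flank and arm differences was not tested. Both differences were also measured against each satellite bin's own mean contact with other chromosomes outside the 5 bins. On that scale flank contact was 1.17 in leaf and 1.19 in endosperm, and arm contact was 0.967 and 0.965. The share of flanks and arms among the remaining interchromosomal contacts of the satellite bins was thus nearly alike in both maps. Divided by the product of both bins' interchromosomal totals, the flank difference was close to 0 (log2 -0.0017), against 0.16.

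The excess contact with flanks was concentrated near the centromere. Bins 0.1 Mb from a satellite bin contacted the satellite bins of the other chromosomes at a mean of 2.41 in leaf and 2.20 in endosperm, and 4 of 8 were higher in endosperm. Bins at 0.2 to 0.3 Mb had a mean of 1.83 and 1.81 and a median of 1.41 and 1.63, and 14 of 16 were higher in endosperm. Among them were the chromosome 5 bins at 11.9 and 12.0 Mb, at 5.29 and 4.41 in leaf and 3.68 and 3.12 in endosperm. At 0.6 to 1.0 Mb the means were 1.29 and 1.46, with 45 of 47 bins higher in endosperm. At 1.1 to 2.0 Mb they were 1.08 and 1.29, and 97 of 97 bins were higher. Further out the profile was flat, at 1.04 and 1.19 from 2.1 to 4.0 Mb and 1.07 and 1.17 beyond. In leaf the rise toward the centromere began inside 1 Mb, whereas in endosperm the level at 1.1 to 2.0 Mb already lay above that of the arms.

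By class, the median contact with the satellite bins was 1.16 in leaf and 1.37 in endosperm for the 181 flank bins, of which 172 were higher in endosperm. It was 1.07 and 1.17 for the 925 arm bins, of which 863 were higher, 1.08 and 1.15 for the 50 bins at chromosome ends, of which 40 were higher, and 1.06 and 1.26 for the 7 bins of the heterochromatic knob of chromosome 4, heterochromatin that an inversion placed on the short arm. All 7 knob bins were higher in endosperm. The direction was thus shared by most bins of the genome. The knob was thus level with the arms in leaf and between arms and flanks in endosperm.

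For each satellite bin the 3 strongest partners on other chromosomes, outside the 5 bins, were listed in each map, which gave 30 places. All 30 lay within 1.5 Mb of a satellite bin, and they were filled by 7 bins. The 3 bins just beyond the chromosome 5 satellite bin filled most of them. The bin at 11.8 Mb had a mean contact with the other satellite bins of 5.21 in leaf and 3.53 in endosperm, the bin at 11.9 Mb 5.29 and 3.68, and the bin at 12.0 Mb 4.41 and 3.12. Their counts were ordinary, between 0.855 and 1.33 times the median, and their contact was 1.41-fold to 1.47-fold lower in endosperm. Their genes were mostly pseudogenes, 11 of 13 in the bin at 11.8 Mb and 9 of 10 in the bin at 11.9 Mb. The strongest partners of the chromosome 5 bin itself were chr2 at 3.7 Mb (3.28 in leaf and 2.66 in endosperm as a mean over other satellite bins), chr1 at 16.5 Mb (1.84 and 1.87) and chr1 at 14.4 Mb (2.53 and 2.22). The remaining bin, at 11.6 Mb of chromosome 5, stood at 2.51 and 2.38. Of the 7 bins, 6 were lower in endosperm, unlike most flank bins.

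Outside the 5 bins, 6 bins had counts over 2 times the median in both maps. The bin at 0.0 Mb of chromosome 2, the bins at 3.2 to 3.5 Mb of chromosome 2 and the bins at 14.1 to 14.3 Mb of chromosome 3 had counts 1.65 to 2.27 times as high in endosperm as in leaf, relative to the median. The chromosome 5 bin at 11.1 Mb, over 2 times the median in leaf alone (2.28 and 1.97), was lower in endosperm. The mean contact of the 6 bins with the satellite bins was 1.51 to 1.90 in leaf and 1.61 to 1.80 in endosperm, far from the 20.4 or more of the satellite pairs in leaf.

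Most of the signal of the satellite bins lay with other chromosomes. Of the balanced signal of the 5 bins, contacts inside the bin left out, 80.0% (79.9 to 80.1) lay with other chromosomes in leaf and 79.2% (79.1 to 79.3) in endosperm. Endosperm minus leaf was -0.774 points (-0.890 to -0.658). The share was 75.3% in leaf and 73.6% in endosperm for chromosome 1, 83.1% and 82.4% for chromosome 2, 79.7% and 79.1% for chromosome 3, 84.7% and 84.3% for chromosome 4, and 77.2% and 76.6% for chromosome 5. The median flank bin had 61.1% to 69.0% in leaf and 61.3% to 69.6% in endosperm. Every satellite bin was above that median, and above each single flank bin of its chromosome except 1 flank bin of chromosome 3. With contacts inside the bin counted too, the difference between the maps turned to 0.268 points, and as recovered counts without balancing it was -3.78 points.

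Contact with the arms of the own chromosome over contact with the arms of others was close to 1. It was 1.06 in leaf and 1.10 in endosperm for chromosome 1, 1.02 and 1.03 for chromosome 2, 1.04 and 1.04 for chromosome 3, 1.01 and 0.999 for chromosome 4, and 1.03 and 1.04 for chromosome 5. Satellite reads placed on the wrong chromosome would also bring this ratio toward 1, and their part was not tested. The median flank bin preferred its own arms, at 1.19 to 1.45 in leaf and 1.39 to 1.49 in endosperm. Single flank bins of chromosomes 2 and 3 lay below the satellite bin. The lowest stood at 0.994 in leaf and 1.03 in endosperm on chromosome 2, and at 0.910 and 0.946 on chromosome 3. A ratio close to 1 was thus not confined to the satellite bins.

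For flanks the contrast was wider still. Satellite bins contacted their own flanks 1.32 to 1.78 times as much as the flanks of other chromosomes in leaf, and 1.22 to 1.69 times in endosperm, lower in endosperm in 5 of 5. The median flank bin did so 5.68 to 6.86 times in leaf and 4.71 to 5.79 times in endosperm. Its log2 difference was -0.16 to -0.34, a larger fall on each chromosome than that of the satellite bin (-0.08 to -0.18). The median arm bin was at 0.01. The fall was thus not particular to the satellite bins.

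**Figure D3:**
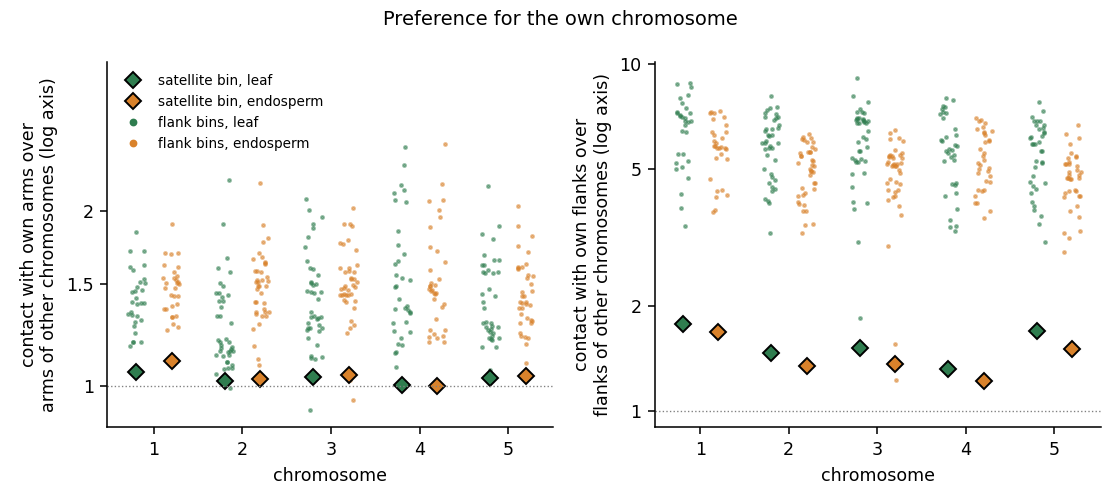
Contact with the own chromosome over contact with other chromosomes, for arms (left) and flanks (right), on log axes; diamonds are satellite bins, dots the flank bins of the same chromosome, and the dotted line is 1. For arms the satellite bins lie between 0.999 and 1.10, and for flanks they lie between 1.22 and 1.78, below nearly all flank bins.

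Measured against their chromosome's mean for each distance, satellite bins were depleted in contact with their own flanks. The mean was 0.573 (0.565 to 0.580) in leaf and 0.497 (0.491 to 0.502) in endosperm, with endosperm over leaf at log2 -0.21 (-0.23 to -0.18). It was 0.775 and 0.690 for chromosome 1, 0.553 and 0.458 for chromosome 2, 0.524 and 0.466 for chromosome 3, 0.434 and 0.391 for chromosome 4, and 0.577 and 0.477 for chromosome 5. All 5 were below 1 in both maps and lower in endosperm. The median flank bin of each chromosome stood at 1.22 to 1.41 in leaf and 0.931 to 1.02 in endosperm. Its log2 difference was -0.31 to -0.46, a larger fall on each chromosome than that of the satellite bin (-0.15 to -0.27). On chromosomes 1, 2, 4 and 5 every flank bin stood above the satellite bin in both maps. Of the 40 flank bins of chromosome 3, 39 did so, and the lowest stood at 0.499 in leaf and 0.376 in endosperm. A depletion this deep was thus rare among flank bins but not confined to the satellite bins, and the fall in endosperm was not particular to them. The part of misplaced satellite reads and of distances in the reference was not tested. The contact itself, not divided by distance, differed little: for chromosome 2 it was 1.96 in leaf and 1.97 in endosperm, for chromosome 3 1.90 and 1.94, for chromosome 4 1.82 and 1.86 and for chromosome 5 2.18 and 2.16. On chromosome 1 it was 2.15 and 2.32. What differed was the chromosome's mean for the distance, which at 0.5 Mb of chromosome 2 was 4.03 in leaf and 5.99 in endosperm.

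The adjacent bins were well below the mean for their distance. On chromosome 4, and on the higher side of chromosome 2, the bins at 0.2 Mb lay lower still relative to it. On chromosome 2 the satellite bin contacted the bin at 3.7 Mb at 9.84 in leaf and 6.98 in endosperm, and the bin at 3.5 Mb at 2.98 and 2.57, where the mean at 0.1 Mb was 18.7 and 23.9. On chromosome 4 the bin at 4.0 Mb stood at 6.86 and 3.87 and the bin at 3.8 Mb at 6.62 and 5.53. On chromosome 5 the bin at 11.8 Mb stood at 6.45 and 5.17 and the bin at 11.6 Mb at 4.22 and 3.80. The neighbours on chromosome 3 were the weakest pair, with 3.80 and 3.65 at 13.6 Mb and 3.05 and 3.53 at 13.4 Mb, the only neighbour that was higher in endosperm. Chromosome 1 had no used neighbour: its bin at 15.1 Mb stood at 23.8 in leaf, from 669 contacts, and had no signal in endosperm. Within 1 Mb the log2 difference over distance was -0.47, larger than over 2 Mb.

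**Figure D4:**
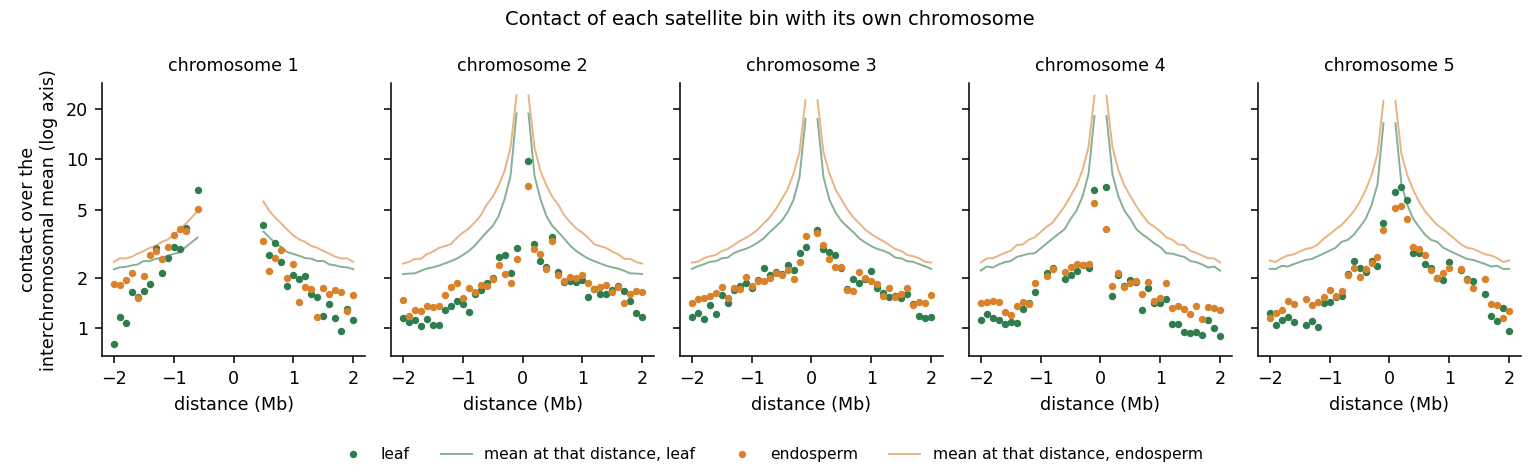
Contact of each satellite bin with the bins up to 2 Mb away on its own chromosome, over the interchromosomal mean (log axis), against distance from the satellite bin in Mb; points are the leaf and endosperm maps and lines the mean of the chromosome at that distance. On chromosomes 2 to 5 the points lie below the lines of their map, except the leaf point of chromosome 5 at 0.3 Mb, and the lines of endosperm lie above those of leaf.

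With their own arms the satellite bins stood closer to the mean for the distance, at 0.830 (0.826 to 0.835) in leaf and 0.857 (0.853 to 0.861) in endosperm, with endosperm over leaf at log2 0.05 (0.03 to 0.06). Chromosome 3 was the exception in direction, at 0.863 and 0.860. The 4 others were higher in endosperm, by log2 0.04 to 0.07.

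The flanks on opposite sides of a satellite bin contacted each other less, relative to bins on the same side at the same distance, in endosperm than in leaf. Over all 5 chromosomes and distances of 0.2 to 1.9 Mb the ratio was 1.21 (1.17 to 1.26) in leaf and 0.714 (0.692 to 0.735) in endosperm, with endosperm over leaf at log2 -0.76 (-0.83 to -0.70). On chromosome 2 it was 0.844 and 0.525, on chromosome 3 0.783 and 0.531, on chromosome 4 1.21 and 0.720, and on chromosome 5 1.03 and 0.694. Chromosome 1 stood apart at 3.17 and 1.33, from 5 distances of 1.1 to 1.5 Mb alone, since the bins beside its satellite bin were not used. Chromosome 1 decided that the leaf mean lay above 1: over chromosomes 2 to 5 the ratio was 0.953 (0.931 to 0.974) in leaf and 0.611 (0.599 to 0.622) in endosperm, with a log2 difference of -0.64. All 5 chromosomes were lower in endosperm.

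The ratio was higher at longer distances in both maps. Over chromosomes 2 to 5 it was 0.469 in leaf and 0.315 in endosperm at 0.2 to 0.4 Mb, 0.830 and 0.547 at 0.5 to 1.0 Mb, and 1.32 and 0.820 at 1.1 to 1.9 Mb. Relative to the same side, contact across the centromere was thus lowest at short reference distances, although the contact itself was higher there, at 6.55 in leaf for 0.2 Mb of chromosome 2 against 2.14 for 1.9 Mb. The ratio in endosperm was below 1 at 18 of 18 distances on chromosomes 2 and 3, at 16 of 18 on chromosome 4 and at 12 of 18 on chromosome 5. In leaf it was below 1 at 13, 12, 6 and 6 of the 18. With flanks of 1 Mb, which chromosome 1 could not give, the log2 difference was -0.32. The ends of the range rest on few pairs: 1 across the centromere at 0.2 Mb, and 1 or 2 on the same side at 1.9 Mb. At long distances same-side pairs reach the outer edge of the flank, and the part of this in the rise was not tested. Both terms of the ratio differed between the maps. At 1.4 Mb of chromosome 4, same-side contact was 1.64 in leaf and 3.21 in endosperm, and contact across was 3.05 and 2.59.

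**Figure D5:**
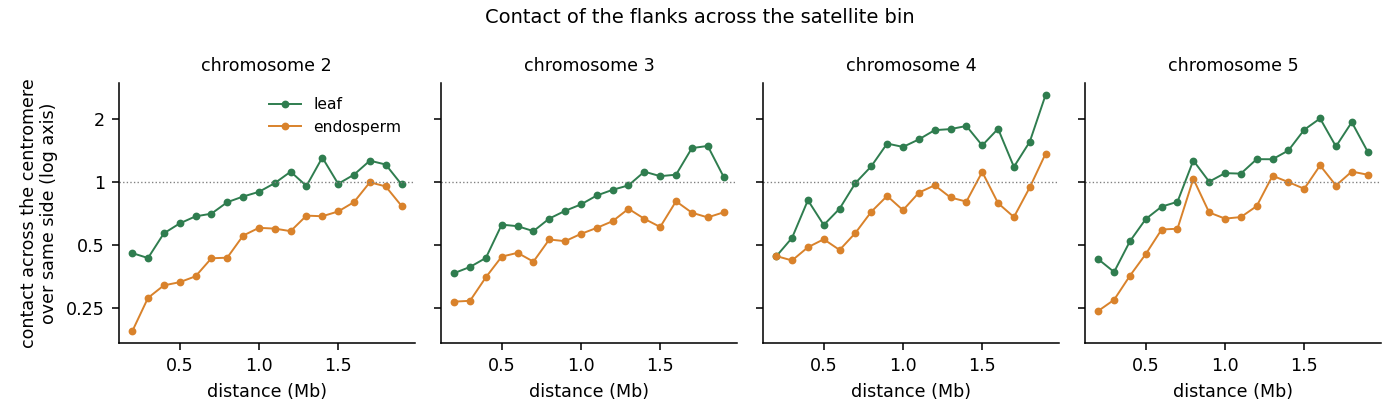
Contact between flank bins on opposite sides of the satellite bin over contact between bins on the same side at the same distance (log axis), by distance in Mb, for chromosomes 2 to 5 in leaf and endosperm; the dotted line is 1. The endosperm points lie below the leaf points, except at 0.2 Mb of chromosome 4, where they are level, and both climb with distance.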

How the data were processed

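Per the matrix names and the labels, the authors deposited 4 matrices of iteratively balanced contact signal, at 100 and 200 kb, each pooled from replicates 1 and 2 of a tissue. The submitters' processing notes name HiC-Pro 2.9.0, Bowtie2 and the build TAIR10. Not given in the sources used here are the enzyme, read filters and treatment of reads with several alignments.

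From the deposited signal, whole counts of contacts were recovered, and 100.0% of pairs came out whole within 0.01. Bins with values for under 50% of others in either map were left out, leaving 1168 of 1193. Flanks were bins within 2 Mb of a satellite bin, ends the 5 outermost bins with signal, and the knob 1.6 to 2.3 Mb of chromosome 4. Gene names came from a RefSeq table of assembly TAIR10.1. Intervals are 95% counting intervals from the recovered counts. They cover counting error only, not the spread between plants or libraries. No p-value was computed. Contact among the satellite bins, with arms of other chromosomes, with own flanks and across the centromere was tested on maps simulated from the leaf counts. The other measures were not tested this way. Neither misplaced reads nor a new balancing was simulated. Members, lists and named regions (each satellite bin, its neighbours, the next bin by count and 3 top partners) were chosen with earlier results of these data known. Python 3.11.15, numpy 2.4.6 and pandas 2.3.3 were used. Alternatives covered the reference, balancing, bin size, flank width, partners and omitted bins.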

Additional observations from a re-analysis of the deposited data

How the results depend on the processing

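No paired analysis was possible because each matrix pools both replicates and carries no replicate number. Of 69 alternatives over 8 results, 30 moved the value by less than its counting interval, 36 by more with the direction kept, and 3 turned the direction. The cause was not tested. The log2 difference among the satellite bins was -0.96 with the product of interchromosomal totals as reference, -0.93 as recovered counts, -0.79 without chromosomes 1 and 2, -0.76 at 200 kb, -0.65 with the bin on either side included, and -0.88 to -0.82 with each bin left out in turn. For flanks of other chromosomes, in the same order, it was -0.0017, 0.22, 0.15, 0.20 and 0.15. It was 0.087 with flanks of 1 Mb and, chosen after seeing the data, 0.021 against contacts outside the 5 bins and 0.20 without the 1 bin before and 3 bins after the chromosome 5 satellite bin. For arms of other chromosomes it was 0.10, 0.066, 0.12, 0.17 and 0.15, and -0.0028 against contacts outside the 5 bins. Own flanks gave -0.40 with the bin on either side, -0.47 with flanks of 1 Mb and -0.22 to -0.19 with each bin left out. Own arms gave 0.085 at 200 kb, 0.099 with the bin on either side and 0.038 to 0.058 with each bin left out. Contact across the centromere gave -0.32 with flanks of 1 Mb on chromosomes 2 to 5, -0.63 without chromosomes 1 and 2, -0.60 at 0.5 to 1.0 Mb (chosen after seeing the data) and -0.81 to -0.64 with each bin left out, the smallest without chromosome 1. The interchromosomal share differed by -3.78 points as counts, 0.268 with contacts inside the bin, -0.539 without chromosomes 1 and 2, -1.14 at 200 kb and -0.858 to -0.561 with each bin left out, the smallest without chromosome 1. The share of all contacts differed by -2.18 points without contacts inside bins, -2.45 with the bin on either side and -3.35 without chromosomes 1 and 2. Leaving out bins in turn was added after seeing the data. Depth limited single pairs, with a median of 16 contacts in leaf and 21 in endosperm between chromosomes.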
